A study of Mus musculus with 8 samples.

Results

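Expression of 9 genes for cell surface proteoglycans, laminin-332 and its integrin receptors was followed in mouse pancreas, namely *Sdc1*, *Sdc4*, *Cd44*, *Lama3*, *Lamb3*, *Itga3*, *Itga2*, *Itgb4*, and *Itgb6*. They were taken by symbol from the RNA-Seq tables and are 9 of the 48709 genes listed for each library. Of these, 6 reached an RPKM (reads per kilobase of exon, relative to the mapped reads of the library) of at least 0.5 in at least 2 libraries of every comparison, and *Lama3*, *Itga2*, and *Itgb6* did not.

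RNA was from pancreata of male mice 8 weeks of age, collected 24 hours after normal saline or after palmitoleic acid (POA) and ethanol, which are joined in the body to fatty acid ethyl esters and cause severe acute pancreatitis (FAEE-SAP). The 4 groups were WT mice with saline, WT mice with FAEE-SAP, cKO mice with saline, and cKO mice with FAEE-SAP, with 2 libraries each, which the series describes as biological replicates. cKO mice carried floxed *Pfkfb3* alleles (*Pfkfb3* fl/fl) and *Pdx1*-Cre, so that exon 2 and exon 3 of this regulator of glycolysis are removed in cells with a history of *Pdx1* expression, which include acinar, ductal, and islet cells but not blood cells, fibroblasts, or vessels. WT mice were purchased from a vendor and are not described as littermates of the cKO mice, so genotype and source of the mice cannot be told apart. Bulk tissue was sequenced, in which fewer cells of a type and less RNA per cell cannot be told apart.

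Syndecans are transmembrane proteins that carry heparan sulphate chains, bind growth factors and matrix proteins, and act beside integrins in cell adhesion. Laminin-332 is a basement membrane laminin with chains encoded by *Lama3* and *Lamb3*, and it is bound by integrin α3β1 and by integrin α6β4, the receptor that anchors epithelial cells through hemidesmosomes. CD44 is the main surface receptor for hyaluronan, and some of its splice forms carry heparan sulphate too.

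The libraries held between 22.91 M and 37.73 M reads, worked out from the smallest RPKM values, so that 1 read on 2 kb of exon was worth 0.01325 to 0.02182 RPKM. Deposited values were divided by median-of-ratios factors, which ranged from 0.6178 to 2.014 and were largest in the WT FAEE-SAP libraries, and levels are given below as scaled RPKM. Acinar markers (7 enzymes and regulators) summed to 131100 to 152700 scaled RPKM with saline and 42490 to 42710 with FAEE-SAP in WT mice, and to 176100 to 180100 and 107600 to 122800 in cKO mice. *Pfkfb3* had 1.71 and 1.70 scaled RPKM with saline and 1.86 and 3.23 with FAEE-SAP in WT mice. In cKO mice it had 0.885 and 2.11 with saline and 1.74 and 2.84 with FAEE-SAP, which overlapped WT mice under both treatments. A value over the whole gene includes the exons that are kept, so it does not check the deletion, and cKO below means libraries labelled cKO. Replicate 1 of cKO saline stood apart, with intestinal markers at 26.1 scaled RPKM in sum (*Fabp2*, *Vil1*, *Apoa4*, *Alpi*, and *Cdx1*). The same sum was at most 0.275 in the other 7 libraries, and in the other 3 groups *Fabp2*, *Alpi*, and *Cdx1* were at 0.

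For the 2 syndecans and for *Lamb3*, 1 promoter window each is shown, because *Sdc1* and *Lamb3* were the genes called below and *Sdc4* is the close relative of *Sdc1*. Windows cover 250 bases before to 50 bases after a RefSeq start on GRCm38.p6, read 5′ to 3′ on the strand of the gene, and were found for 7 of the 9 genes. Capitals mark matches to 4 motifs searched on both strands, AP-1 (TGANTCA), NF-kB (GGGANTTCC), STAT (TTCNNNGAA), and the GC box (GGGCGG), which were chosen after the sequences had been looked at.
*Sdc1*, chr12:8771146-8771445, plus strand: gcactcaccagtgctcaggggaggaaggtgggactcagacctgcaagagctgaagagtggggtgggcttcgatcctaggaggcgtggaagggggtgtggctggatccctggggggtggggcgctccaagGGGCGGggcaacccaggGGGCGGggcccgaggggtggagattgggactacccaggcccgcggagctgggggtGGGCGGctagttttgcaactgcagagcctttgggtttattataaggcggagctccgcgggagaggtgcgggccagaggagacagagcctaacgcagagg
*Sdc4*, chr2:164443139-164443438, minus strand: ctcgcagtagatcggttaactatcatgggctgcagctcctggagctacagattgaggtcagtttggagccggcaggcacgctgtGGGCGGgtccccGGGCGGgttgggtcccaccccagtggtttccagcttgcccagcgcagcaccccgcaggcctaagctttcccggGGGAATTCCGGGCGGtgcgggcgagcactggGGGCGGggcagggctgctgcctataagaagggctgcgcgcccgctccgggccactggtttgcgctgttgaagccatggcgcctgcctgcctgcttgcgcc
*Lamb3*, chr1:193301993-193302292, plus strand: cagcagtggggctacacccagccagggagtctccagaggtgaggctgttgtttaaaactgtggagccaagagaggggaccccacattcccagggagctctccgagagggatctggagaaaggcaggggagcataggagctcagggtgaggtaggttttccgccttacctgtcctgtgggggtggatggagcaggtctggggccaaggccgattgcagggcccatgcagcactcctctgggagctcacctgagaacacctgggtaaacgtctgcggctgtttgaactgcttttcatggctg

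The *Sdc1* window held 3 GC boxes and the *Sdc4* window held 4 GC boxes and 1 NF-kB match, which starts at position -81 from the start and is next to a GC box without sharing bases with it. The *Lamb3* window and a second *Lamb3* window that overlaps it held none of the 4 motifs. Both *Lamb3* windows and the *Sdc4* window lie inside the gene spans given below, so the outermost annotated starts of these genes were not searched. Among all 32851 windows of this length, 35.7% held a GC box, 1.68% an NF-kB match, 7.81% an AP-1 match, and 8.3% a STAT match. *Cd44* and *Itga2* had 1 GC box each, the 2 *Itga3* windows held 3 GC boxes in one and 1 GC box with 1 AP-1 match in the other, and the 2 *Itgb6* windows held none. These matches describe letters in the windows and not binding.

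To find how these genes responded to pancreatitis in mice with intact *Pfkfb3*, FAEE-SAP was first compared with saline in WT mice. *Sdc1*, which encodes syndecan-1, rose and *Lamb3*, which encodes the laminin β3 chain, fell. Both syndecans, *Cd44*, *Itga3*, and *Itgb4* had higher values in both FAEE-SAP libraries than in both saline libraries, and only *Sdc1* of these 5 passed the test. A gene was called changed at a Benjamini-Hochberg adjusted p under 0.05 over all genes tested with limma and a change of at least 2-fold. By this rule 1 of the 6 genes tested was higher and 1 was lower, where 3.08% and 3.86% of all 10894 genes tested were higher and lower. With values as deposited, 5 of the 6 genes were called higher and none lower, and the split over all genes went from 335 higher and 420 lower to 7184 and 86. All 6 had an unadjusted p under 0.05, as did 27.7% of all genes. The median change of the 6 was 1.21 on the log2 scale, where that of all genes tested was 0.0166. Groups did not overlap, in the higher direction, for 5 of the 6, and for 29.7% of all genes tested. In the lower direction the count was 1 of the 6, and 29.1% of all genes.

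*Sdc1* (GRCm38 chromosome 12, 8771323 to 8793715, plus strand) had 1.69 and 1.54 scaled RPKM in WT saline, 18.6 and 8.83 in WT FAEE-SAP, 2.04 and 1.74 in cKO saline, and 5.28 and 2.98 in cKO FAEE-SAP. The 2 WT FAEE-SAP libraries were the highest of all 8, and replicate 1 was above replicate 2. In WT mice the log2 change was 2.93 (SE 0.36, n = 2 and 2, limma adjusted p = 0.0126), with a 95% interval of 2.03 to 3.83. With each library left out in turn the change was between 2.42 and 3.496 (limma adjusted p between 0.0275 and 0.0376). These fits leave 1 group with a single library, which is assumed to vary like the others, so they are a weak check.

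*Sdc4* (chromosome 2, 164424247 to 164443887, minus strand) encodes syndecan-4, which joins integrins at focal adhesions. It had 9.13 and 6.80 scaled RPKM in WT saline, 14.8 and 32.4 in WT FAEE-SAP, 6.36 and 8.60 in cKO saline, and 5.51 and 9.98 in cKO FAEE-SAP. The WT FAEE-SAP libraries were again the highest, but here replicate 2 was above replicate 1. The log2 difference in WT mice was 1.46 (SE 0.39, limma adjusted p = 0.0785). The value depended on replicate 2 of WT FAEE-SAP, the library at 32.4, without which it was 0.93 (limma adjusted p = 0.202). Without replicate 1 of that group it was 2.06 (limma adjusted p = 0.0444), and without either saline library the adjusted p was 0.138 and 0.197.

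The ratio of *Sdc1* to *Sdc4* needs no scaling between libraries. It was 0.185 and 0.226 in WT saline, 1.26 and 0.272 in WT FAEE-SAP, 0.320 and 0.203 in cKO saline, and 0.959 and 0.299 in cKO FAEE-SAP. Replicate 1 of both FAEE-SAP groups stood above the other 6 libraries, and replicate 2 of both was within the range of the saline libraries. *Sdc1* was thus the higher of the 2 syndecans in 1 library, replicate 1 of WT FAEE-SAP.

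*Cd44* (chromosome 2, 102811141 to 102901665, minus strand) had 0.495 and 1.13 scaled RPKM in WT saline, 1.80 and 1.36 in WT FAEE-SAP, 0.829 and 0.710 in cKO saline, and 1.47 and 0.787 in cKO FAEE-SAP. Saline libraries of WT mice differed from each other by more than 2-fold. The log2 difference in WT mice was 0.98 (SE 0.40, limma adjusted p = 0.179), and its 95% interval ran from 0.00258 to 1.95. It was 0.45 without replicate 1 of WT saline, the library at 0.495 (limma adjusted p = 0.541), and 1.51 without replicate 2 of that group (limma adjusted p = 0.0800).

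**Figure D1:**
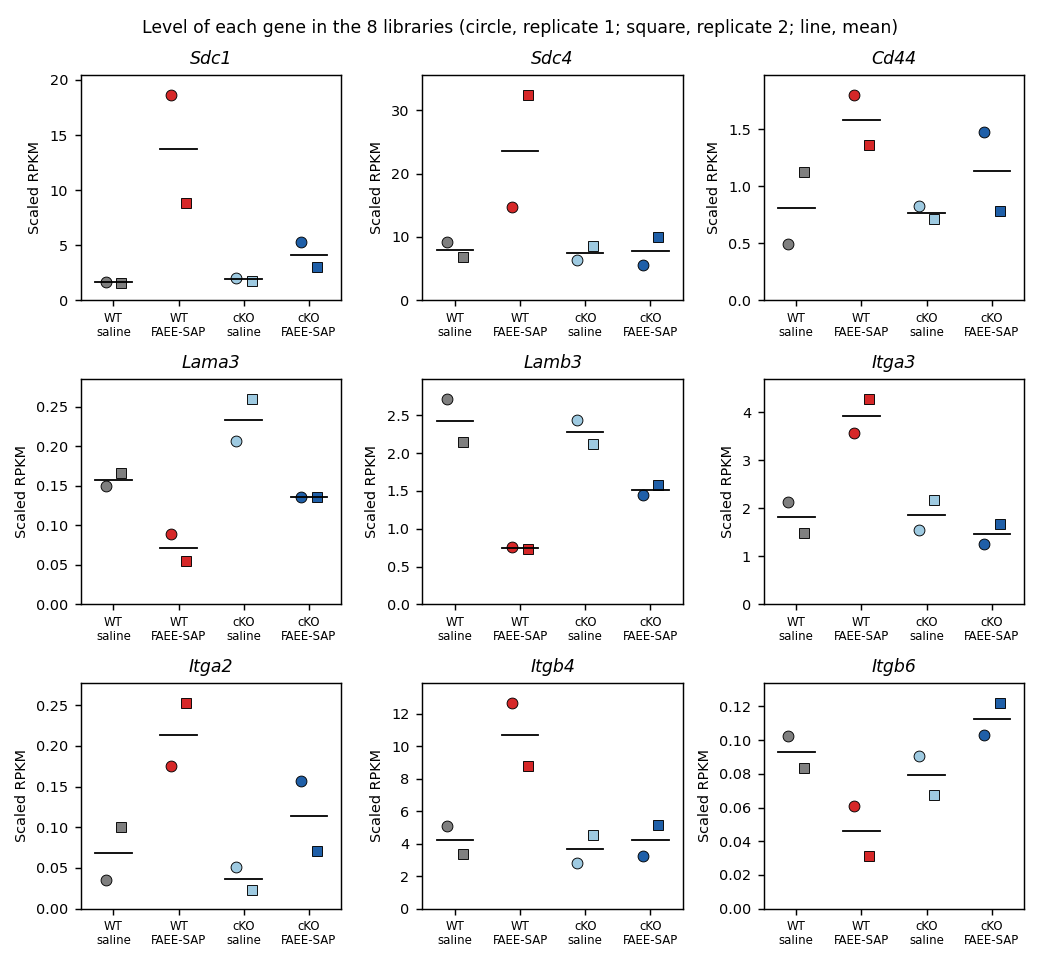
Scaled RPKM (y axis, linear from 0, different range in each panel) of the 9 genes in the 4 groups (x axis). Circles are replicate 1, squares are replicate 2, and lines are means of 2 libraries. *Sdc1* is highest in WT FAEE-SAP (18.6 and 8.83), and *Lamb3* is lowest there (0.764 and 0.732).

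Among the laminin-332 chains, *Lamb3* (chromosome 1, 193207699 to 193343878, plus strand) had 2.71 and 2.14 scaled RPKM in WT saline and 0.764 and 0.732 in WT FAEE-SAP. It had 2.44 and 2.12 in cKO saline and 1.45 and 1.57 in cKO FAEE-SAP. The 4 saline libraries were highest, the cKO FAEE-SAP libraries lay between, and the WT FAEE-SAP libraries were lowest. In WT mice *Lamb3* fell by 1.60 on the log2 scale (SE 0.23, limma adjusted p = 0.0197). This call rests on the scaling. As deposited, *Lamb3* was 1.96 and 1.85 RPKM in WT saline and 1.54 and 1.41 in WT FAEE-SAP, a log2 difference of -0.35 (limma adjusted p = 0.214), while the median of all genes was 1.24 higher with FAEE-SAP on that scale. The call was also lost without replicate 1 of WT saline (log2 difference -1.44, limma adjusted p = 0.0972), replicate 1 of WT FAEE-SAP (-1.57, 0.0640), or replicate 2 of WT FAEE-SAP (-1.51, 0.110).

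*Lama3* (chromosome 18, 12333819 to 12583013, plus strand), the laminin α3 chain, was much lower than *Lamb3* and had 33 to 58 reads per library. It had 0.149 and 0.166 scaled RPKM in WT saline, 0.0887 and 0.0546 in WT FAEE-SAP, 0.207 and 0.260 in cKO saline, and 0.136 and 0.136 in cKO FAEE-SAP. Values were lower with FAEE-SAP in both genotypes without overlap after scaling, but as deposited the groups overlapped in both genotypes. Without a filter on low values the log2 difference in WT mice was -0.62 (limma adjusted p = 0.27).

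The ratio of *Lamb3* to *Lama3*, which no scaling affects, overlapped between saline and FAEE-SAP in each genotype, at 12.9 to 18.2 in WT saline, 8.62 to 13.4 in WT FAEE-SAP, 8.18 to 11.8 in cKO saline, and 10.7 to 11.5 in cKO FAEE-SAP. A ratio shows unequal values of 2 genes and not which of them changed.

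Of the integrins, *Itgb4* (chromosome 11, 115974709 to 116008412, plus strand) encodes the β4 subunit, which pairs with α6. It had 5.09 and 3.38 scaled RPKM in WT saline, 12.6 and 8.78 in WT FAEE-SAP, 2.79 and 4.54 in cKO saline, and 3.22 and 5.16 in cKO FAEE-SAP. Only WT FAEE-SAP stood clear of the other groups. The log2 difference in WT mice was 1.32 (SE 0.29, limma adjusted p = 0.0505), close to the threshold. Exons of *Itgb4* share 537 bp (7.66% of its exonic length) with a lincRNA on the opposite strand, *B230344G16Rik*. A directional kit was used, and whether strand was used in the counting is not given in the sources used here.

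Its partner *Itga6* had 4 and 3.55 scaled RPKM in WT saline, 2.48 and 2.98 in WT FAEE-SAP, 3.49 and 2.68 in cKO saline, and 3.87 and 2.59 in cKO FAEE-SAP, with a log2 difference of -0.47 in WT mice (limma adjusted p = 0.218). The ratio of *Itgb4* to *Itga6* was 1.27 and 0.951 in WT saline, 5.10 and 2.94 in WT FAEE-SAP, 0.799 and 1.70 in cKO saline, and 0.832 and 1.99 in cKO FAEE-SAP. Both WT FAEE-SAP libraries were above the other 6, and the cKO groups overlapped.

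**Figure D2:**
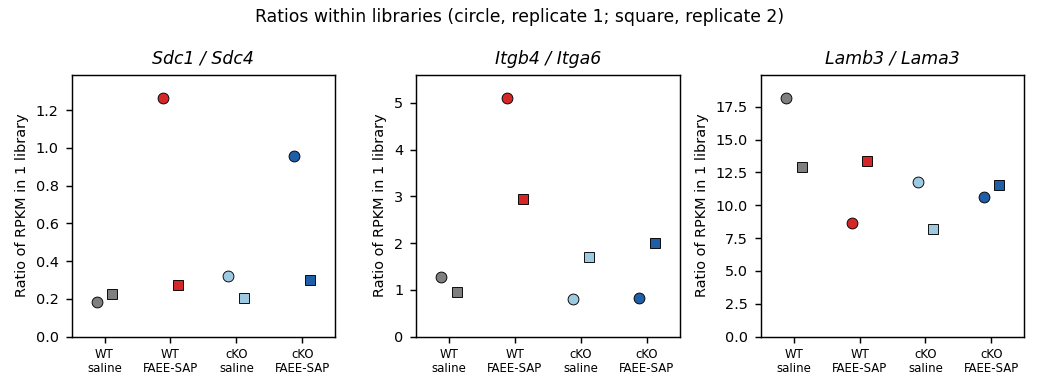
Ratios of 2 genes within the same library (y axis, linear from 0) in the 4 groups (x axis). Circles are replicate 1 and squares are replicate 2. *Itgb4* over *Itga6* is highest in WT FAEE-SAP (5.10 and 2.94), *Sdc1* over *Sdc4* is high in 1 library of each FAEE-SAP group (1.26 and 0.959), and *Lamb3* over *Lama3* (8.18 to 18.2) overlaps between saline and FAEE-SAP in each genotype.

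*Itga3* (chromosome 11, 95044474 to 95076801, minus strand) encodes the α3 subunit of the α3β1 laminin receptor. It had 2.14 and 1.495 scaled RPKM in WT saline, 3.58 and 4.27 in WT FAEE-SAP, 1.55 and 2.17 in cKO saline, and 1.25 and 1.68 in cKO FAEE-SAP. As for *Itgb4*, only WT FAEE-SAP stood clear of the other groups. The log2 difference in WT mice was 1.09 (SE 0.25, limma adjusted p = 0.0583).

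*Itgb1*, the common β1 subunit with which α3 and α2 pair, was higher per length than any of the 9 genes in the saline libraries. It had 14.3 and 14.4 scaled RPKM in WT saline, 22.2 and 19.7 in WT FAEE-SAP, 16.1 and 15.2 in cKO saline, and 16.8 and 17.8 in cKO FAEE-SAP. The log2 difference in WT mice was 0.54 (limma adjusted p = 0.104).

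*Itga2* (chromosome 13, 114833081 to 114932100, minus strand), the α2 subunit of a collagen and laminin receptor, rested on 3 to 113 reads per library. It had 0.0346 and 0.101 scaled RPKM in WT saline, 0.175 and 0.252 in WT FAEE-SAP, 0.0509 and 0.0228 in cKO saline, and 0.157 and 0.0712 in cKO FAEE-SAP. FAEE-SAP libraries were above the saline libraries of the same genotype in both genotypes. Without a filter on low values the log2 difference in WT mice was 1.05 (limma adjusted p = 0.181).

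*Itgb6* (chromosome 2, 60598292 to 60722643, minus strand), the β6 subunit of an epithelial receptor that activates latent TGF-β, had only 10 to 26 reads per library. It had 0.103 and 0.0836 scaled RPKM in WT saline, 0.0609 and 0.0312 in WT FAEE-SAP, 0.0904 and 0.0677 in cKO saline, and 0.103 and 0.122 in cKO FAEE-SAP. After scaling, the values with FAEE-SAP were below those with saline in WT mice and above them in cKO mice, neither past the threshold, but as deposited the WT groups overlapped (0.0743 and 0.0720 RPKM with saline, 0.123 and 0.0601 with FAEE-SAP). Its partner *Itgav* had 0.779 and 0.695 scaled RPKM in WT saline and 0.995 and 1.004 in WT FAEE-SAP, a log2 difference of 0.40 (limma adjusted p = 0.321).

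By level per length, *Sdc4* was first and *Itgb4* second in all 4 saline libraries. *Lamb3*, *Itga3*, and *Sdc1* held ranks 3 to 5 in an order that changed between libraries, *Cd44* was rank 6, and *Lama3* was rank 7. With FAEE-SAP in WT mice, *Sdc1* was rank 1 in replicate 1 and rank 2 in replicate 2, next to *Itgb4* at 8.78 scaled RPKM against 8.83. *Lamb3* was rank 6 in both, behind *Cd44*.

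The same comparison in cKO mice used 9423 tested genes. None of the 6 genes was called with limma, where 0.0531% of all genes tested were called, and 2 of the 6, *Sdc1* and *Lamb3*, had an unadjusted p under 0.05, as did 9.42% of all genes. The median log2 difference of the 6 was 0.126, where that of all genes was -0.0109. *Sdc1* had a log2 difference of 1.06 (SE 0.33, limma adjusted p = 0.455), with the FAEE-SAP libraries above the saline libraries, and 0.66 without replicate 1 of cKO FAEE-SAP (limma adjusted p = 0.812). *Lamb3* had -0.53 (SE 0.17, limma adjusted p = 0.488), with the FAEE-SAP libraries below. Without overlap of the groups, 19.6% of all genes were higher and 23.6% lower. On the deposited scale, where the median of all genes was 0.567, the difference of *Lamb3* was 0.06.

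The other 4 genes overlapped between saline and FAEE-SAP in cKO mice. The log2 differences were 0.46 for *Cd44*, 0.22 for *Itgb4*, 0.03 for *Sdc4*, and -0.29 for *Itga3*, with limma adjusted p between 0.669 and 0.980. The 95% interval of each included 0, and ran from -0.93 to 0.36 for *Itga3*, from -0.83 to 0.90 for *Sdc4*, and up to 1.35 for *Cd44*. The value of *Itga3* was 0.29 on the deposited scale. Without a filter on low values, the log2 differences were 0.54 for *Itga2*, -0.45 for *Lama3*, and 0.22 for *Itgb6*. With the library that held intestinal markers left out, none was called, *Sdc1* was 1.17 and *Lamb3* -0.43, and *Sdc4* (-0.18) and *Itgb4* (-0.12) turned below 0.

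**Figure D3:**
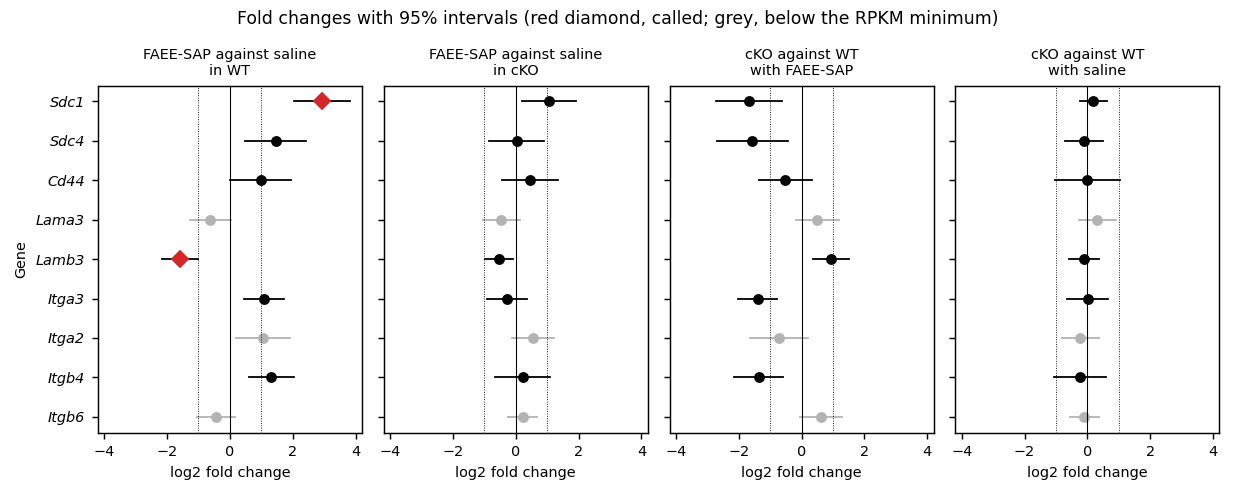
Log2 fold changes (x axis) of the 9 genes (y axis) in 4 comparisons, with 95% intervals from limma as lines. Dotted lines mark 2-fold, red diamonds the genes called, which are *Sdc1* (2.93) and *Lamb3* (-1.60) in WT mice, and grey marks the 3 genes below the RPKM minimum, taken from the fit without a filter.

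To ask how loss of *Pfkfb3* bears on these genes during pancreatitis, cKO mice were compared with WT mice after FAEE-SAP. This comparison shares the WT FAEE-SAP libraries with the comparison in WT mice, so they are not independent. None of the 6 genes was called with limma, where 1.27% of 11008 genes tested were called, and 5 of the 6 had an unadjusted p under 0.05, as did 19.5% of all genes. With values as deposited, 5 of the 6 were called lower, and the split over all genes went from 95 higher and 45 lower to 73 and 4354. Of the 6, 4 were lower and 1 higher in cKO mice without overlap of the groups, as were 25.3% and 26.5% of all genes tested. The median log2 difference of the 6 was -1.38, where that of all genes was -0.00778.

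The log2 difference was -1.68 for *Sdc1* (SE 0.43, limma adjusted p = 0.134) and -1.56 for *Sdc4* (SE 0.46, limma adjusted p = 0.167). It was -1.40 for *Itga3* (SE 0.25, limma adjusted p = 0.0779) and -1.36 for *Itgb4* (SE 0.31, limma adjusted p = 0.115). These 4 genes were lower in both cKO libraries than in both WT libraries, and none passed the adjusted threshold. With a replicate block, a pairing that no label names, *Sdc1*, *Sdc4*, and *Itga3* passed (limma adjusted p = 0.0155, 0.0169, and 0.0258). That block gave 330 higher and 238 lower over all genes. With all 8 libraries in 1 model *Itga3* passed (limma adjusted p = 0.0433). The paper's list of differentially expressed genes in cKO mice, made by its own rule, includes the identifiers of all 4. Without replicate 2 of WT FAEE-SAP, *Sdc4* had -1.005 (limma adjusted p = 0.577). *Lamb3* was higher in both cKO libraries, by 0.94 (SE 0.23, limma adjusted p = 0.129), and by 0.04 on the deposited scale, where the median of all genes was -0.908. *Cd44* had -0.52 with overlapping groups (limma adjusted p = 0.467). Without a filter on low values, *Itga2* had -0.71, *Lama3* 0.50, and *Itgb6* 0.62, with limma adjusted p between 0.376 and 0.481.

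After saline, cKO and WT mice gave 0 calls among the 6 genes and among all 8715 genes tested with limma (0%), and 187 of all genes (2.15%) but none of the 6 had an unadjusted p under 0.05. *Sdc1* was higher in cKO mice without overlap, as were 16.3% of all genes, and the other 5 overlapped, with 12% of all genes lower. The log2 differences of the 6 lay between -0.24 for *Itgb4* and 0.19 for *Sdc1*, with limma adjusted p of 0.999. The widest 95% interval, that of *Cd44*, ran from -1.05 to 1.03, and the narrowest, that of *Sdc1*, from -0.25 to 0.62. A difference of less than 2-fold could therefore not be told from none for *Cd44*. Without the library that held intestinal markers, the differences were 0.10 for *Itgb4* and 0.08 for *Sdc1*. On the deposited scale, where the median of all genes was -0.248, *Sdc1* had -0.07.

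The difference between the 2 genotypes in their response was tested as the interaction over all 8 libraries. None of the 6 genes was called with limma, where 0.0719% of 11133 genes tested were called, and 4 of the 6 had an unadjusted p under 0.05, as did 12.6% of all genes. The log2 interaction was -1.88 for *Sdc1* (SE 0.55, limma adjusted p = 0.274), -1.40 for *Itga3* (SE 0.37, 0.247), -1.46 for *Sdc4* (SE 0.60, 0.387), and -1.13 for *Itgb4* (SE 0.50, 0.418). For *Lamb3* it was 1.003 (SE 0.27, limma adjusted p = 0.246), and for *Cd44* -0.52 (SE 0.57, 0.753). The *Cd44* value was -0.0026 without replicate 1 of WT saline and -1.045 without replicate 2 of that group. The *Sdc4* value was -2.02 without replicate 1 of WT FAEE-SAP and -0.89 without replicate 2 of that group. It is thus not shown that any of these genes responded differently in the 2 genotypes. Without the library that held intestinal markers, none was called and the values were -1.79 for *Sdc1*, -1.65 for *Itga3*, -1.68 for *Sdc4*, -1.49 for *Itgb4*, and 1.097 for *Lamb3*.

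Other genes of the same matrix and adhesion systems were taken as 10 lists of 105 genes, of which 104 were in the tables and 80 were tested in WT mice. FAEE-SAP gave 9 called higher and 1 called lower in WT mice, beside the 3.08% and 3.86% of all genes given above. No listed gene was called in the other comparisons or for the interaction, where 0% to 1.27% of all genes were called. Of the other laminin chains, 1 of 6 tested was called, *Lama5*, a chain of epithelial and vascular basement membranes, with 1.76 and 1.46 scaled RPKM in WT saline and 4.73 and 3.25 in WT FAEE-SAP (log2 change 1.25, limma adjusted p = 0.0458). In cKO mice *Lama5* had 1.38 and 1.64 with saline and 2.71 and 4.11 with FAEE-SAP (log2 difference 1.116, limma adjusted p = 0.368).

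Integrin adaptors and actin links gave 2 of 18 called higher in WT mice. *Actn1*, an actin crosslinker of focal adhesions, rose by 1.68 (limma adjusted p = 0.0128), and *Src*, a kinase of focal adhesions, by 1.56 (limma adjusted p = 0.0442), both on the log2 scale. With FAEE-SAP, cKO against WT mice had -1.20 for *Actn1* (limma adjusted p = 0.0859) and -1.56 for *Src* (limma adjusted p = 0.0955). The list had a median of 0.298 in WT mice.

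Of 14 genes for CD44 ligands, hyaluronan handling, and CD44 linkers, 7 were tested and 3 were called higher in WT mice, with a list median of 1.08. They were *Vcan*, a hyaluronan-binding proteoglycan (log2 change 2.34, limma adjusted p = 0.0151), *Spp1*, which encodes osteopontin (1.79, 0.0326), and *Hyal2*, a hyaluronidase (1.34, 0.0425). Of 7 sheddases and inhibitors, 3 were called higher, with a list median of 0.83. They were *Mmp7*, a matrix metalloproteinase known to cleave syndecan-1 (log2 change 4.35, limma adjusted p = 0.00417), *Timp1*, a metalloproteinase inhibitor (3.41, 0.00292), and *Mmp9* (2.29, 0.0195).

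Of 14 syndecan partners and heparan sulphate enzymes tested, *Xylt1*, which starts the sugar chain on the core protein, was called lower (log2 change -1.89, limma adjusted p = 0.0198), and the list median was 0.138. In cKO against WT mice with FAEE-SAP it had 1.64 (limma adjusted p = 0.0726).

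In the other lists none was called in WT mice with limma. Among 5 other syndecans and glypicans tested (median -0.35), *Sdc2* had -0.65, *Gpc3* -0.57, and *Sdc3* 0.14. Among 8 other basement membrane genes (median -0.0908), *Col4a5* had -1.13 and *Col4a2* 0.96. Among 8 other epithelial integrins (median 0.469), *Itga1* had -0.77 and *Itga5* 0.73. Among 4 leukocyte integrins (median 0.196), *Itgb2* had 0.71 and *Itgb7* 0.33. Among 3 hemidesmosome genes (median 0.584), *Plec*, which links integrin β4 to keratin filaments, had 0.95 (limma adjusted p = 0.066) and *Dst* 0.58.

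**Figure D4:**
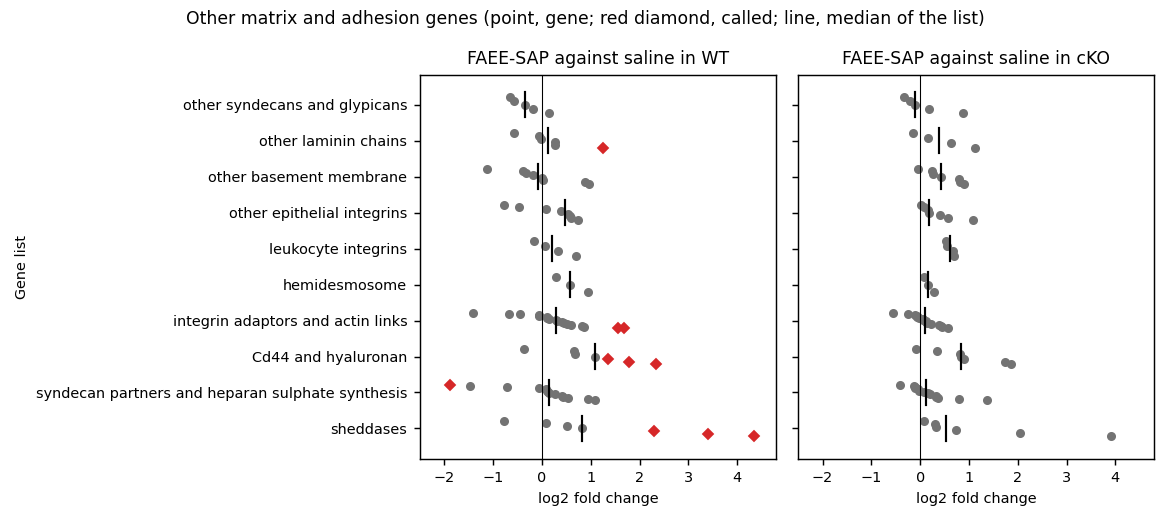
Log2 fold change (x axis) with FAEE-SAP of the tested genes of 10 lists (y axis) in WT mice (left) and cKO mice (right). Points are genes, red diamonds are genes called, and black lines are list medians. In WT mice 9 genes are called higher and 1 lower, with *Mmp7* (4.35) farthest, and in cKO mice none is called.

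Cell type markers moved with these results, and their part in them was not tested. In WT mice 7 of 7 acinar markers were called lower with FAEE-SAP, and in cKO against WT mice with FAEE-SAP 5 of 7 were called higher. The 6 ductal markers summed to 13.7 to 16.3 scaled RPKM in WT saline, 36.9 to 38.5 in WT FAEE-SAP, 12.7 to 15.4 in cKO saline, and 18.6 to 22.9 in cKO FAEE-SAP. Of the 4 ductal markers tested in WT mice, 1 was called higher, *Epcam* (log2 change 2.16, limma adjusted p = 0.00357), while *Krt19* had 0.87 (limma adjusted p = 0.0519). The 6 neutrophil markers were all called higher in WT mice and summed to 1.32 to 2.25 with saline and 54.3 to 59.6 with FAEE-SAP. Only 1 of these 6 markers reached the RPKM minimum in the comparison of the saline groups. In WT mice they thus entered the test mainly through the FAEE-SAP libraries, and the count of calls is partly fixed by the filter. In cKO mice they summed to 1.29 to 3.69 with saline and 12.7 to 19.9 with FAEE-SAP, and 2 of 6 were called lower than in WT mice with FAEE-SAP.

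*Sdc1* also marks plasma cells, and none of 5 B and plasma cell markers tested was called in WT mice. The list summed to 10.2 to 20.2 scaled RPKM with saline and 11.1 to 14.7 with FAEE-SAP in WT mice, and none of its 6 genes was at 0 in both libraries of any group. General leukocyte markers summed to 18.3 to 39.0 and 28.1 to 32.4, with 0 of 6 called. Markers of macrophages (6 tested), T cells (5), fibroblasts (6), endothelium (5), and mesothelium (1) also gave 0 calls in WT mice. Of 5 islet markers, 2 were called lower in WT mice with FAEE-SAP, and 3 were called higher in cKO against WT mice with FAEE-SAP.

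The genes whose pattern over the 8 libraries was most like the mean of the 9 standardised genes were *Lsm2* (Pearson r = 0.990), *Cp* (0.980), *Flot1* (0.978), *Cxcl5* (0.978), and *Actn1* (0.976), among 8253 genes compared. These values are a description, since the 8 libraries share 4 groups. *Flot1*, a membrane raft protein, had 2.54 and 3.01 scaled RPKM in WT saline, 16.1 and 10.1 in WT FAEE-SAP, 2.86 and 2.96 in cKO saline, and 5.44 and 4.13 in cKO FAEE-SAP. *Cxcl5*, a neutrophil chemokine, was at 0 in both WT saline libraries and had 6.80 and 2.21 in WT FAEE-SAP. Among the 9 genes themselves, r with their mean was highest for *Sdc1* (0.953) and *Itgb4* (0.92) and lowest for *Lamb3* (-0.947), *Lama3* (-0.822), and *Itgb6* (-0.636). The mean includes each of these genes.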

How the data were processed

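The authors deposited RPKM for each of 8 libraries, made with a directional RNA-Seq kit. Reads were filtered with fastp and mapped to Ensembl GRCm38.p6 in CLC Genomics Workbench. How reads were counted is not given in the sources used here. RPKM are not counts, so no count model was used. Between 84.16% and 85.56% of values under 20 reads were whole reads within 0.1 reads, which gave approximate library totals. By symbol 46325 genes (95.1%) were matched to GENCODE vM21.

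Genes with a deposited RPKM of at least 0.5 in at least 2 libraries of a comparison were scaled by the median of ratios within it, and log2(scaled RPKM + 0.1) was tested with limma 3.58.1 (intensity trend) in R 4.3.3. Fold changes on this scale understate those of low genes. Levels were scaled over all 8 libraries. A call needed a 2-fold change and an adjusted p under 0.05. Label permutation cannot go below p = 0.33 with 2 libraries per group. Genes under the RPKM minimum were taken from a fit without a filter. A gene low with saline can pass the minimum only through FAEE-SAP libraries, and its call as higher is then partly fixed by the filter. The procedure was run on simulated data with less noise than these libraries showed and with large planted changes. That run does not show how the procedure performs on these data.

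All 9 genes, their integrin partners, and up to 3 called genes of each list (otherwise up to 2 with the largest difference) were named, with the 5 genes most alike in pattern. 1 gene of the rule is not reported here. These genes and lists were chosen with earlier results of these data known. Alternatives were a pseudocount of 1 or 0.01, an RPKM minimum of 2 or no filter, quantile normalization, trimmed-mean factors, no scaling, no trend, a replicate block, all 8 libraries in 1 model, an unadjusted p, and each library left out. Sequences are from RefSeq, GRCm38.p6. Python 3.11.15, numpy 2.4.6, pandas 2.3.3, and matplotlib 3.10.9 were used.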

Additional observations from a re-analysis of the deposited data

Results flagged for a closer look

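After scaling, the values of *Itgb6* with FAEE-SAP lay on opposite sides of those with saline in the 2 genotypes, with neither difference past the threshold (log2 -0.44 in WT mice, limma adjusted p = 0.389, and 0.22 in cKO mice, 0.76). Both WT libraries with FAEE-SAP (0.0609 and 0.0312 scaled RPKM) were below both WT saline libraries (0.103 and 0.0836), and both cKO libraries with FAEE-SAP (0.103 and 0.122) were above both cKO saline libraries (0.0904 and 0.0677). The log2 interaction without a filter on low values was 0.632 (limma unadjusted p = 0.0499, adjusted p = 0.512), so the difference between genotypes did not pass the threshold. The gene had 10 to 26 reads per library, and as deposited the WT groups overlapped (0.0743 and 0.0720 RPKM with saline, 0.123 and 0.0601 with FAEE-SAP), so the opposite sides were not seen without scaling.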

How the results depend on the processing

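In WT mice, 2 of the 6 genes were called with FAEE-SAP. The count was 5 with values as deposited, 1 with no filter, 5 with an unadjusted p, and 1 to 2 with each library left out (1 without replicate 1 of WT saline or replicate 2 of WT FAEE-SAP). It was 3 with a trimmed mean of log ratios, a pseudocount of 1, a replicate block, or all 8 libraries in 1 model. Over all genes these settings gave, in this order, 340, 204, 183, and 374 higher and 397, 303, 259, and 459 lower. An unadjusted p gave 640 higher and 709 lower. With an RPKM minimum of 2 it was 3 of 5, since *Lamb3* was below that minimum and was not tested. Over all genes that minimum gave 279 higher and 335 lower. *Sdc1* was called under every alternative run in WT mice, and *Lamb3* was lost as deposited, with no filter (-1.53, limma adjusted p = 0.0617), and without 3 of the 4 libraries. *Itgb4* was called with a trimmed mean of log ratios, an RPKM minimum of 2, a pseudocount of 1, and a replicate block, and *Itga3* with an RPKM minimum of 2 and with all 8 libraries in 1 model (limma adjusted p = 0.0495 and 0.044). The cKO response gave 0 calls, and 1 with an unadjusted p, where 207 of all genes were higher and 73 lower. In cKO against WT mice with FAEE-SAP the count of 0 became 5 as deposited, 1 with all 8 libraries in 1 model (*Itga3*), and 4 with an unadjusted p. Over all genes, 1 model gave 185 higher and 109 lower there, and an unadjusted p gave 545 and 379. The interaction count of 0 became 2 as deposited and 4 with an unadjusted p. Over all genes, interaction calls went from 5 higher and 3 lower to 21 and 770 as deposited. An unadjusted p gave 424 and 359. With each library left out, 0 were called in every comparison but that in WT mice. The cause was not tested. No called value changed sign. Of the values of single genes, 427 kept their side of the threshold, 36 passed it only under an alternative, and 5 lost it, all 5 for *Lamb3*.

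Same-numbered replicates deviated together with r = 0.399 between cKO groups and 0.304 with FAEE-SAP, and with -0.175 between WT groups and -0.319 with saline, and no label names a shared litter, batch, or day, so the numbers were not taken as pairs. With a replicate block 3 genes were called in WT mice, and in cKO against WT mice with FAEE-SAP 3 were called, *Sdc1*, *Sdc4*, and *Itga3* (limma adjusted p = 0.0155, 0.0169, and 0.0258). Calls over all genes there went from 95 higher and 45 lower to 330 and 238. The block gave 0 for the others. With the WT saline numbers exchanged, chosen after seeing the data, 4 were called in WT mice.

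Over all genes, calls in WT mice went from 335 higher and 420 lower to 7184 and 86 as deposited, 132 and 127 with no filter, and 33 and 64 without replicate 2 of WT FAEE-SAP. In cKO against WT mice with FAEE-SAP they were 73 and 4354 as deposited (median shift -0.908), and 0 with no filter or without either WT FAEE-SAP library. With 2 libraries per group, and 3 genes at 113 reads or fewer, small differences were not detectable.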
